A study of Mus musculus with 45 samples.

Results

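The 9 genes described here are the metallothioneins Mt1, Mt2, Mt3 and Mt4, the transcription factor gene Mtf1, and the metal transporter genes Slc30a1, Slc30a10, Slc39a4 and Slc39a14. They were taken by gene symbol from a table of 22080 genes, which holds all 9 with 1 probe set each. They were selected on the liver values of Mt1 and Mt2, which lay higher under all 3 treatments than under the high-cholesterol diet, so these liver differences are given as a description and were not tested.

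The data are 45 Mouse Gene ST v1.0 arrays from Affymetrix, split evenly over liver, kidney and brain, of male C57BL/6 mice that were 7 weeks old at the start and were sacrificed on day 43. The diets were the AIN-93 standard diet (Control), the same diet with 0.5% cholesterol (HCD), HCD with 1.0% of the Ganoderma lucidum extract Gl-1 (HCD+Gl-1), HCD with 1.0% of the extract Gl-2, from fungus grown on a substrate with 10 mM acetylsalicylic acid (HCD+Gl-2), and HCD with 0.03 g of simvastatin per 100 g (HCD+Sim). All treated mice thus also ate cholesterol, and each diet group had 8 mice. The methods state that food and water were withheld from the mice for 8 h at the end point. According to the methods, each group was hybridised as a pool A of 4 animals, a pool B of the remaining 4 and a pool C that mixed both. By this account its 3 arrays hold only 2 independent pools. The p-values and standard errors below rest on a spread between arrays that is pooled over all 15 groups, not on that between animals. In tissue RNA, fewer cells of a type and less RNA per cell cannot be told apart.

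Metallothioneins are small cysteine-rich proteins that bind zinc and copper, and the liver raises Mt1 and Mt2 in response to zinc, glucocorticoids, inflammation and fasting. MTF-1, the product of Mtf1, is a zinc-sensing transcription factor that binds metal response elements in the promoters of Mt1, Mt2 and the zinc exporter gene Slc30a1. Cells also move zinc through the ZnT proteins, encoded by the Slc30a genes, which carry it out of the cytosol, and the ZIP proteins, encoded by the Slc39a genes, which carry it in. Slc30a10 is known mainly as a manganese exporter.

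The promoters of Mt1 and Mt2 are shown because these were the members that moved together, and because MTF-1 acts through short elements in them. Both genes lie on chromosome 8 in mouse build GRCm38.p6, Mt2 at chr8:94172618-94173567 and Mt1 at chr8:94178883-94180327, a record that also covers a longer predicted transcript. The sequences are the 250 bases before the transcript start that the RefSeq promoter table uses, on the + strand, at chr8:94172368-94172617 for Mt2 and chr8:94178839-94179088 for Mt1. Capitals mark the metal response element cores TGCACNC or TGCGCNC, on either strand.
Mt2: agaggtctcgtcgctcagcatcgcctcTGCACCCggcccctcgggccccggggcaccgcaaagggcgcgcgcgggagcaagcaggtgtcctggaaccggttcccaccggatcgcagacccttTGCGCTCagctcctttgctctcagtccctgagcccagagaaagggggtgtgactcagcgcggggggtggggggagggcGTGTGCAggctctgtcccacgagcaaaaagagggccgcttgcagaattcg
Mt1: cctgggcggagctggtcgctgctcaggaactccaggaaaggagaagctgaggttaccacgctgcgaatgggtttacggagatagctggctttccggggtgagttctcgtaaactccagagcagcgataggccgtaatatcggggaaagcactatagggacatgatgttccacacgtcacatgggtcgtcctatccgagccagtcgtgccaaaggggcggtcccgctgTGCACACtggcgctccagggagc
The start used for Mt1 lies inside its gene record, not at the first base of that record. Just past the start used, the Mt1 window held a pair of further cores, at chr8:94179091-94179115.
Mt1 site: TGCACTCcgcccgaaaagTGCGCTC

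Over the 300 bases of each window, which run 50 bases past the start, Mt2 held 4 cores that do not overlap and Mt1 held 3. These counts depend on the start used. Where transcription starts in these mice was not measured, and cores outside a window were not counted. At least 3 such cores were found in 1.31% and at least 4 in 0.295% of the 32851 promoter windows of the same length. Slc30a1 held 2 cores, at bases -43 to -37 before and 31 to 37 after its start, and Slc30a10 held 2, the first of which reads as a core on both strands. At least 2 cores were found in 6.14% of windows. Mt3 and Mt4 held 1 core each, and no match was found in the window of Mtf1. The antioxidant response element TGACNNNGC, searched on both strands and present in 12.4% of windows, matched once in Mt2 as TGACTCAGC at bases -79 to -71 and once in Slc30a1 as TGACAAGGC. Its matches in Mt2 and Slc30a1 did not overlap a metal response element core. These are matches of letters and no binding was measured. The promoter table held 7 of the 9 members, the others being Slc39a4 and Slc39a14.

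The values are log2 expression, and limma was fitted once to all 45 arrays to compare the groups. A gene was called at an absolute log2 fold change over 0.7 with a Benjamini-Hochberg adjusted p of at most 0.05 over the 22080 genes of a comparison. The tissue labels were checked against marker genes. The mean of 9 hepatocyte markers was 12.99 to 13.12 in the liver arrays and no higher than 9.17 elsewhere, that of 9 kidney markers was 11.66 to 11.82 in kidney and at most 6.17 elsewhere, and that of 9 brain markers was 10.98 to 11.21 in brain and at most 6.76 elsewhere. Array medians lay between 6.76 and 6.92, and 2 arrays of a group correlated at 0.985 to 0.997. Markers of other tissues were raised in some liver arrays and their values stand beside the results below. Although pool C is described as a mix of pools A and B, its Mt1 value lay between those of A and B in 2 of 15 groups and its Mt2 value in 3 of 15.

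Mt1 and Mt2 in liver were lower under HCD than under Control and were higher under each treatment than under HCD. Liver Mt1 was 11.89, 11.81 and 12.10 in the Control arrays of pools A, B and C, and 11.19, 10.83 and 11.40 in the HCD arrays. Under HCD+Gl-1 it was 12.01, 11.90 and 11.99, under HCD+Gl-2 12.58, 12.33 and 12.90, and under HCD+Sim 12.32, 12.42 and 12.31. The 3 HCD arrays lay below all 12 other liver arrays. The difference of HCD from Control was -0.79 (SE 0.10) in Mt1, and the differences from HCD were 0.83 under HCD+Gl-1, 1.47 under HCD+Gl-2 and 1.21 under HCD+Sim (SE 0.10 each).

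Liver Mt2 followed the same order with larger differences. It was 10.85, 10.78 and 11.02 in the Control arrays, and 9.93, 9.27 and 10.41 in the HCD arrays, of which pool B was the lowest. Under HCD+Gl-1 it was 11.09, 11.17 and 10.90, under HCD+Gl-2 12.01, 11.62 and 12.29, and under HCD+Sim 11.50, 11.65 and 11.60. Again no array of another diet was as low as any HCD array. The difference of HCD from Control was -1.02 (SE 0.16), and the differences from HCD were 1.19, 2.11 and 1.72 under the 3 treatments in the same order (SE 0.16 each), or 2.28-, 4.30- and 3.29-fold. The HCD arrays are shared by these comparisons, so their values are not independent of each other. Each SE rests on a spread pooled over the groups of all 3 tissues. The SD of Mt2 was 0.57 in the liver HCD arrays, 0.12 in the liver Control arrays and 0.01 in the kidney Control arrays. For these comparisons, fits on the compared groups alone called fewer members, as given at the end.

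**Figure D1:**
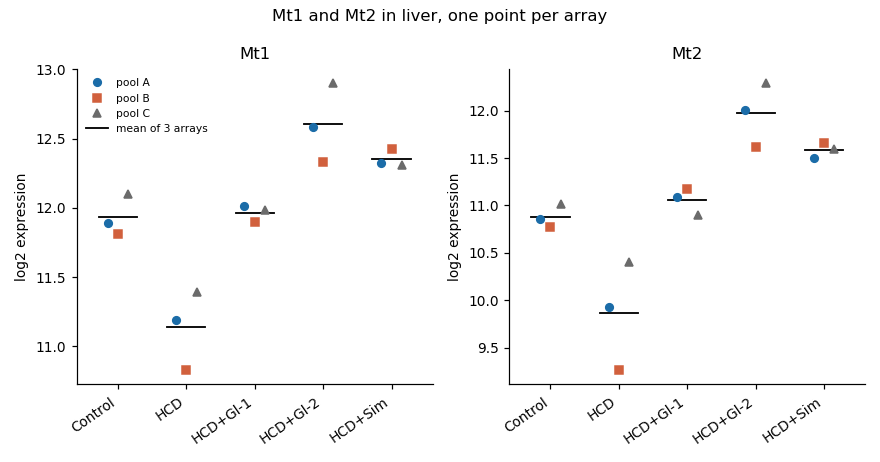
Log2 expression of Mt1 and Mt2 (vertical axes) in the 15 liver arrays by diet (horizontal axes), with 1 point per array shaped by pool and a line at the mean of the 3 arrays. The 3 HCD arrays lie below all others for both genes, and HCD+Gl-2 has the highest means, 12.61 for Mt1 and 11.97 for Mt2.

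That both genes pass the call rule in the 3 liver comparisons with HCD follows from how they were chosen and is no result. For description, 0.163% of all genes passed it for HCD+Gl-1, 0.303% for HCD+Gl-2 and 0.258% for HCD+Sim, and 0.245% passed it for HCD against Control, which uses the same HCD arrays and which both genes also passed. Among the members in the 3 comparisons of a treatment with HCD, Mt1 under HCD+Gl-1 (0.83) lay just inside the threshold of 0.7 and Slc30a10 under HCD+Gl-2 (-0.36) was the nearest outside. The size of the differences depended on pool B of HCD. Without that array, Mt1 differed by -0.64 between HCD and Control and by 0.67 between HCD+Gl-1 and HCD, below the threshold, while Mt2 still passed it in both.

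Against Control, the groups fell into an order. Under HCD+Gl-1 the arrays overlapped those of Control for both genes, with differences of 0.03 (SE 0.10) in Mt1 and 0.17 (SE 0.16) in Mt2. Under HCD+Sim they lay above Control by 0.42 and 0.70, and under HCD+Gl-2 by 0.67 and 1.09, with no overlap in either case. These differences share the Control arrays, and for Mt1 and Mt2, chosen on the treated arrays, they are a description. The order of means in liver was therefore HCD+Gl-2, HCD+Sim, HCD+Gl-1, Control and HCD for both genes, of which HCD+Gl-2 and HCD+Sim, and HCD+Gl-1 and Control, overlapped as neighbours.

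The choice of genes had not used the differences among the treatments, but it had used the treated arrays. For Mt1 and Mt2 these comparisons, here and in the next paragraph, are therefore a description, and no test is read from them. Mt2 was higher under HCD+Gl-2 than under HCD+Gl-1 by 0.92 (SE 0.16, adjusted p 0.00108), where 1 of 9 members and 0.172% of all genes were called. Mt1 differed in the same direction by 0.64 (SE 0.10, adjusted p 6.41e-04) and Mtf1 by 0.29 (SE 0.06, adjusted p 0.00771), both below the fold threshold. The 3 HCD+Gl-2 arrays lay above the 3 HCD+Gl-1 arrays for Mt1, Mt2 and Mtf1, and below them for Slc30a10 (-0.14, adjusted p 0.509). The share of all genes without overlap is not given here, so this is a description. By limma, 4363 of the 22080 genes had an unadjusted p under 0.05 in this comparison. The Mt2 call was lost in a fit on pools A and B only (0.68, adjusted p 0.0613), in a fit on the 15 liver arrays (adjusted p 0.132) and in a fit on the arrays of the compared groups alone (adjusted p 0.381).

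Between HCD+Gl-2 and HCD+Sim no member was called and the arrays overlapped for both genes, with differences of 0.25 in Mt1 (95% interval 0.04 to 0.47) and 0.39 in Mt2 (95% interval 0.06 to 0.72), while 0.285% of all genes were called. Between HCD+Gl-1 and HCD+Sim no member was called either, against 0.249% of all genes. There Mt1 was lower under HCD+Gl-1 (-0.39) with an adjusted p of 0.0298 and Mt2 (-0.53) with an adjusted p of 0.055, neither past the fold threshold. Both extracts were given at 1.0%, and simvastatin at its own dose.

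None of the other members was called in liver between a treatment and HCD. MTF-1 itself is encoded by Mtf1, whose liver arrays were 8.77, 8.64 and 8.70 under HCD, 8.45, 8.66 and 8.47 under HCD+Gl-1 and 8.77, 8.83 and 8.85 under HCD+Gl-2. Its difference between HCD and Control was 0.13 (adjusted p 0.443), and the arrays of these groups overlapped. The zinc exporter gene Slc30a1, an MTF-1 target as Mt1 and Mt2 are, was 8.26, 8.13 and 8.24 under HCD and 8.40, 8.22 and 8.52 under HCD+Gl-2, which overlapped. It differed from HCD by 0.09, 0.17 and 0.15 (SE 0.09 each) under the 3 treatments. The zinc importer genes Slc39a14, which acute inflammation raises in liver, and Slc39a4 differed by -0.00 to 0.08 and -0.03 to 0.18. Mt3 and Mt4, the metallothioneins known from brain and from stratified epithelium, differed by no more than 0.11 in either direction in the 4 comparisons with HCD.

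Slc30a10 was the member whose 12 liver arrays with cholesterol, treated or not, all lay below the 3 Control arrays. It was 8.82, 8.86 and 8.76 under Control, 8.65, 8.33 and 8.39 under HCD, 8.24, 8.20 and 8.26 under HCD+Gl-1, 8.14, 8.14 and 8.00 under HCD+Gl-2 and 8.30, 8.60 and 8.09 under HCD+Sim. The highest array with cholesterol, pool A of HCD, was still under the lowest Control array. The share of all genes with such a separation is not given here, so it is a description. The difference of HCD from Control was -0.36 (SE 0.11, adjusted p 0.107) and was not called. The differences of the treatments from Control, a comparison added after the values were seen, were larger. Under HCD+Gl-2 the difference was -0.72 (SE 0.11, adjusted p 3.11e-05) and was called, as 1 of the 7 members other than Mt1 and Mt2, where 0.584% of all genes were called. Under HCD+Gl-1 it was -0.58 (SE 0.11, adjusted p 0.00110) and under HCD+Sim -0.48 (SE 0.11, adjusted p 0.0103), both below the fold threshold, where 0.322% and 0.358% of all genes were called. The HCD+Gl-2 call lay close to the threshold and was lost without HCD+Gl-2 pool C (-0.67), without Control pool B (-0.70) and with pools A and B only (-0.70), each with an adjusted p under 0.05. Mtf1 was higher under HCD+Gl-2 than under Control by 0.25 (adjusted p 0.0184), below the fold threshold. The Slc30a10 difference between HCD and Control was 0.26 (adjusted p 0.973) in kidney and 0.07 (adjusted p 0.984) in brain.

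**Figure D2:**
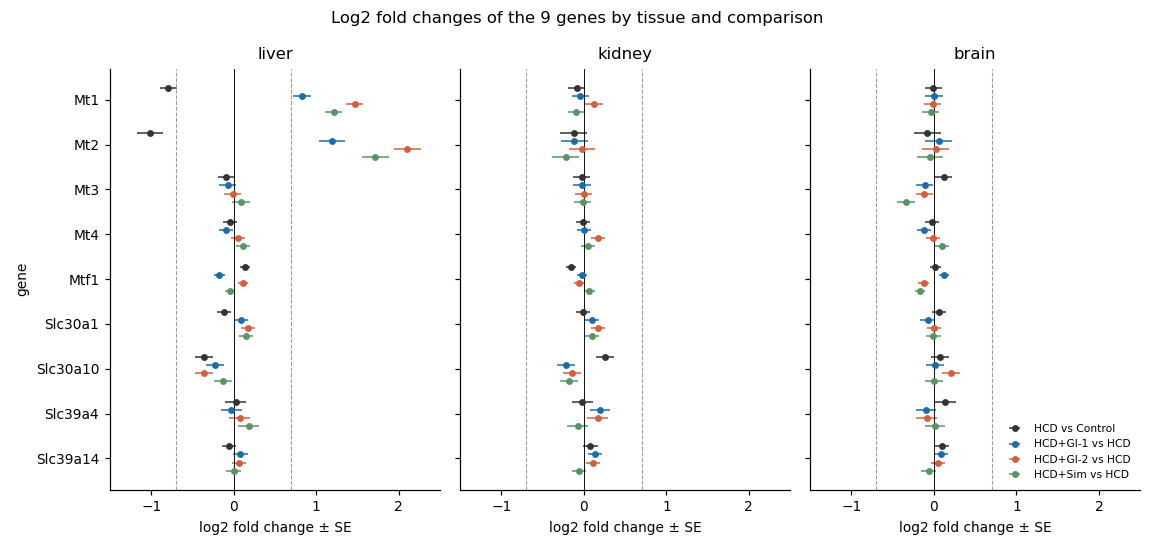
Log2 fold changes with their standard errors (horizontal axis) of the 9 genes (vertical axis) in liver, kidney and brain, coloured by comparison, with dashed lines at -0.7 and 0.7. Mt1 and Mt2 in liver are the points past the dashed lines, and in kidney and brain all values lie between -0.34 and 0.26.

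In kidney and brain no member was called by limma in any of the 8 diet comparisons. In kidney the shares of all genes called were 0.0408% for HCD against Control and 0.131%, 0.335% and 0.14% for the 3 treatments against HCD, in the order Gl-1, Gl-2 and simvastatin, and in brain they were 0.0317%, 0.00906%, 0.0226% and 0%. Kidney Mt1 was 12.47, 12.42 and 12.40 under Control, 12.34, 12.36 and 12.33 under HCD, 12.29, 12.30 and 12.31 under HCD+Gl-1, 12.46, 12.41 and 12.53 under HCD+Gl-2 and 12.29, 12.17 and 12.29 under HCD+Sim. The HCD+Gl-2 arrays lay just above the HCD arrays, and the whole kidney range of Mt1 was narrower than the gap between these groups in liver. Kidney Mt2 was 11.31, 11.28 and 11.23 under HCD and 11.34, 11.01 and 11.40 under HCD+Gl-2, which overlapped. In brain, Mt1 group means lay between 12.90 and 12.95 and Mt2 group means between 12.38 and 12.51.

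Of the 36 values of members and comparisons in kidney, 4 had an unadjusted p under 0.05, and of the 36 in brain, 2. The values with the lowest p in brain were Mt3, the metallothionein of neurons and astrocytes, at -0.34 under HCD+Sim against HCD (95% interval -0.55 to -0.12, adjusted p 0.544), and Mtf1 at -0.16 in the same comparison (adjusted p 0.711). Brain Mt3 was 11.88, 11.87 and 11.77 under HCD and 11.42, 11.31 and 11.77 under HCD+Sim, so the pool C arrays hardly differed and the groups overlapped. In kidney, the 95% interval of the HCD+Gl-2 difference from HCD was -0.09 to 0.33 for Mt1 and -0.35 to 0.30 for Mt2.

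The kidney and brain responses were also compared with each other within the fit. No member was called for a difference between the responses to HCD, HCD+Gl-1, HCD+Gl-2 or HCD+Sim, where 0.122%, 0.159%, 0.326% and 0.163% of all genes were called and 3 of 36 values had an unadjusted p under 0.05. The largest such value among the members was -0.35 (SE 0.15, adjusted p 0.606) for Slc30a10 under HCD+Gl-2. The liver and kidney responses of Mt1 and Mt2 were not tested against each other, because the liver values had chosen the genes.

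**Figure D3:**
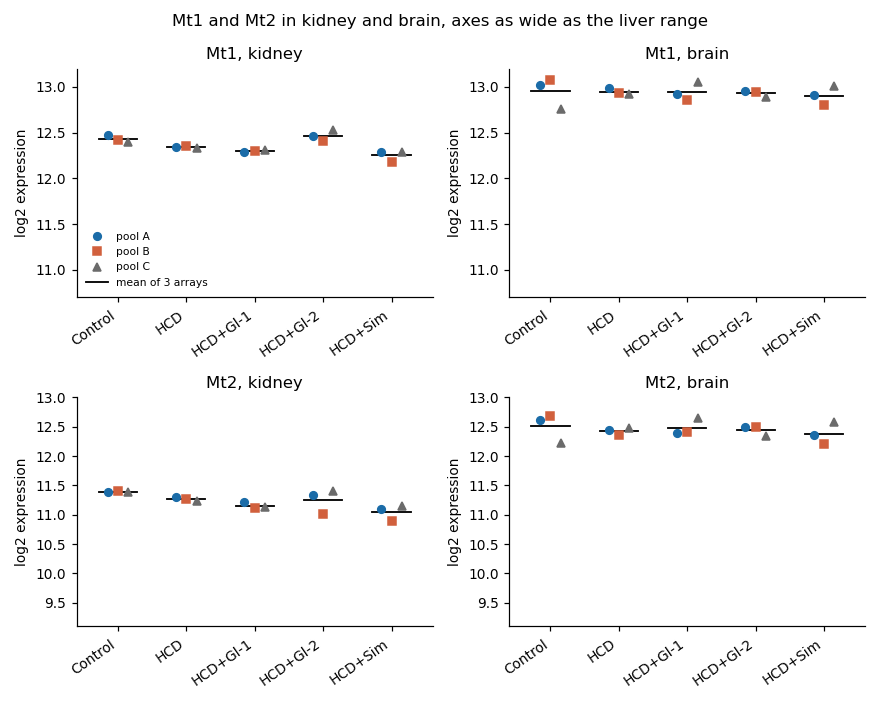
Log2 expression of Mt1 and Mt2 (vertical axes, spanning the range of the liver values as well) in the 15 kidney and 15 brain arrays by diet (horizontal axes), with 1 point per array and a line at the mean of the 3 arrays. Group means of Mt1 lie between 12.25 and 12.47 in kidney and between 12.90 and 12.95 in brain.

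On the Control diet the 3 tissues differed in several members. Mt3 was 11.64, 11.78 and 11.75 in brain and near 8.3 in liver (8.29, 8.28, 8.28) and kidney (8.31, 8.38, 8.20). Its difference of liver from brain was -3.44 (SE 0.11, adjusted p 1.08e-27) and that of kidney from brain -3.42 (SE 0.11, adjusted p 1.55e-27). The same order of brain, kidney and liver held for Mt1, with means of 12.95, 12.43 and 11.93, and for Mt2, with means of 12.51, 11.40 and 10.88. Mt1 was called between liver and brain (-1.02) but missed the fold threshold between the other pairs (-0.50 and -0.52), and Mt2 was called between liver and brain (-1.63) and between kidney and brain (-1.11).

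The transporter genes ranked otherwise. Slc39a14, the ZIP14 importer of zinc, iron and manganese, was 10.62, 10.66 and 10.63 in liver, 8.61, 8.66 and 8.49 in kidney and 7.76, 7.75 and 7.61 in brain. Slc39a4, the ZIP4 importer known for zinc uptake in the intestine, was 8.25, 8.32 and 8.02 in liver and lay between 5.51 and 5.73 in kidney and brain, which overlapped. Slc30a10 had means of 8.81 in liver, 7.26 in brain and 6.19 in kidney, with no overlap. Slc30a1 was higher in kidney than in brain by 0.80 and called there, while liver and kidney overlapped. Mtf1 was called between no pair of tissues and had means of 8.57, 8.43 and 8.55 in liver, kidney and brain.

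In all, 3 of 9 members were called between liver and kidney, 6 between liver and brain and 5 between kidney and brain, where 16.8%, 32.7% and 30% of all genes were called. With shares of this size a call by itself sets a member little apart from other genes. Mt4 had group means no higher than 6.45, below the table's median value of 6.84, so a filter at that median would keep 8 of the 9 members.

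**Figure D4:**
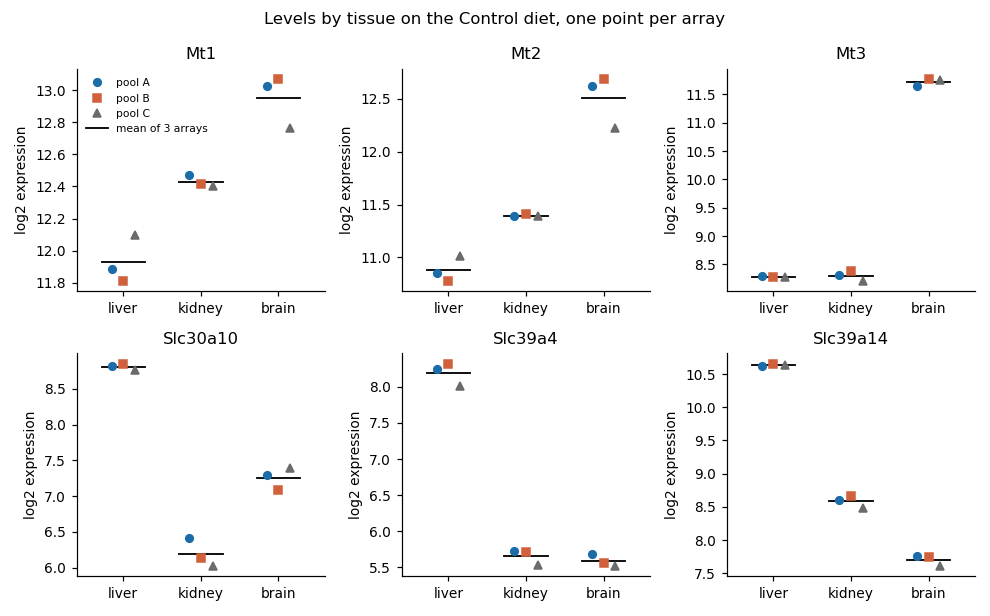
Log2 expression of 6 members (vertical axes, each with its own range) in the Control arrays of liver, kidney and brain (horizontal axes), with 1 point per array and a line at the mean of 3 arrays. Mt3 is high in brain, Slc39a4 and Slc39a14 are high in liver, and Slc30a10 differs between all 3 tissues.

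The rest of the pathway was described through lists of genes. None of the 20 other Slc30a and Slc39a genes was called in any of the 15 diet comparisons. Of all genes, 0% to 0.335% were called in a comparison, so lists of this size would seldom hold a call. Their median difference from HCD in liver was 0.01 under each of the 3 treatments. Of 6 measured genes other than the members that are known to respond to MTF-1, limma called 0 in these 15 comparisons, and of 10 genes of copper handling also 0. Over these 35 genes, 1 of which is on 2 lists, and 15 comparisons, 54 of 525 values had an unadjusted p under 0.05. An adjusted p of at most 0.05 was reached by 7, all below the fold threshold. Of the 22080 genes, 883 to 4695 passed the first limit and 4 to 902 the second in a comparison. The 7 included Gclc, on the list of MTF-1 responsive genes, at 0.52 (adjusted p 5.0e-05) for HCD+Gl-1 against HCD in kidney. In liver Gclc was at -0.32 for HCD+Gl-2 against HCD, and at -0.38 for HCD+Gl-2 and -0.27 for HCD+Gl-1 against HCD+Sim. The importer gene Slc39a6 was at -0.43 for HCD+Gl-2 against HCD and -0.40 against HCD+Sim in liver. Ndrg1, on the list of MTF-1 responsive genes, was another, at -0.48 for HCD against Control in liver. In the 3 further comparisons of a treatment with Control in liver, Ndrg1 was called lower under HCD+Gl-1 (-0.74, adjusted p 3.63e-05) and HCD+Gl-2 (-0.71, adjusted p 3.01e-05), and no other gene of the 35 was called. The shares of all genes called there were 0.322% for HCD+Gl-1, 0.584% for HCD+Gl-2 and 0.358% for HCD+Sim.

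Between tissues, many of these genes were called on the Control diet. Of the 20 other transporter genes, 7 were called between liver and kidney, all lower in liver, 11 between liver and brain and 11 between kidney and brain. Of all genes, 16.8%, 32.7% and 30% were called in the same comparisons, so a call sets these genes little apart. Slc39a12 was lower in liver (-3.19) and kidney (-3.22) than in brain, and the importer gene Slc39a8 was higher in liver (2.77) and kidney (3.40) than in brain. Slc30a3, the transporter that fills synaptic vesicles with zinc, was lower in liver (-2.11) and kidney (-2.20) than in brain. Slc30a2 was higher in kidney than in brain by 2.81, and Cp, the copper-carrying plasma ferroxidase ceruloplasmin, was higher in liver than in kidney by 3.63 and than in brain by 4.63.

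Further lists of genes were set beside Mt1 and Mt2 in liver, of which the acute phase and glucocorticoid responsive genes share inducers with them. Against HCD, 0.163% of all genes were called under HCD+Gl-1, 0.303% under HCD+Gl-2 and 0.258% under HCD+Sim. Of 12 immediate early genes, which respond within minutes to many stimuli, 9 were called higher under HCD+Gl-2 against HCD and 0 under HCD+Gl-1 or HCD+Sim. Their mean was 8.51, 7.17 and 8.94 in pools A, B and C of HCD+Gl-2 and between 6.91 and 7.40 in the other liver arrays, a range that holds pool B. Pool B, with the lowest of these 3 values, also had the lowest Mt1 and Mt2 of the group. With that array as the only one of HCD+Gl-2, Mt1 differed from HCD by 1.19 and Mt2 by 1.75, and the difference in Mt2 from HCD+Gl-1 was 0.56 (adjusted p 0.14). In kidney all 12 genes were called under HCD+Gl-2, by 0.91 to 3.97, where Mt1 differed by 0.12 and Mt2 by -0.02.

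Of 17 acute phase genes, 2 were called in liver, Saa2 (3.15) and Steap4 (0.81) under HCD+Gl-1, and all 17 lay above HCD there. The mean of the list was 10.19 to 10.34 in the 3 HCD arrays and 10.67 to 11.12 under Control. In the treated groups it was high in pools A and B and low in pool C, at 11.25, 11.44 and 10.42 under HCD+Gl-1, 11.02, 11.23 and 10.15 under HCD+Gl-2, and 11.35, 11.54 and 10.07 under HCD+Sim. Pool C is described as a mix of pools A and B, yet its mean of the list lay below both in each treated group. The Mt1 and Mt2 values of these pool C arrays lay above all HCD arrays. The part of acute phase and immediate early genes in the liver values of Mt1 and Mt2 was not tested.

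Of 15 glucocorticoid responsive genes, none was called in a treatment against HCD in liver, although Per1 (0.81) and Dusp1 (0.80) were called higher under HCD+Gl-2 than under HCD+Gl-1 and Zbtb16 (0.78) higher than under HCD+Sim. Of 11 genes that NRF2, the antioxidant regulator, controls, Osgin1 was called higher under HCD+Sim (0.87) and G6pdx lower under HCD (-0.90). Of 12 clock genes, Ciart (1.23) and Npas2 (-0.82) were called under HCD+Gl-2 relative to HCD in liver.

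Markers of other tissues also differed between liver arrays. The mean of 15 exocrine pancreas markers was 7.01 and 7.46 in pools A and B of HCD+Sim, 6.01 in pool C and at most 6.01 in the other liver arrays, and that of 14 skeletal muscle markers was 7.34, 7.63 and 6.43 in the same arrays. Against HCD, 11 and 7 of these markers were called higher. With pool C as the only HCD+Sim array, Mt1 differed from HCD by 1.17 and Mt2 by 1.73, against 1.21 and 1.72 with all 3 arrays. The mean of 17 squamous epithelium markers was 6.47, 6.77 and 6.07 under Control and at most 6.17 elsewhere in liver, with 4 called lower under HCD, and skeletal muscle markers were 6.84, 6.95 and 6.75 under Control. With pool C as the only Control array, HCD differed by -0.96 in Mt1 and -1.15 in Mt2. In each of these fits a lone array is assumed to vary as the other groups do.

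**Figure D5:**
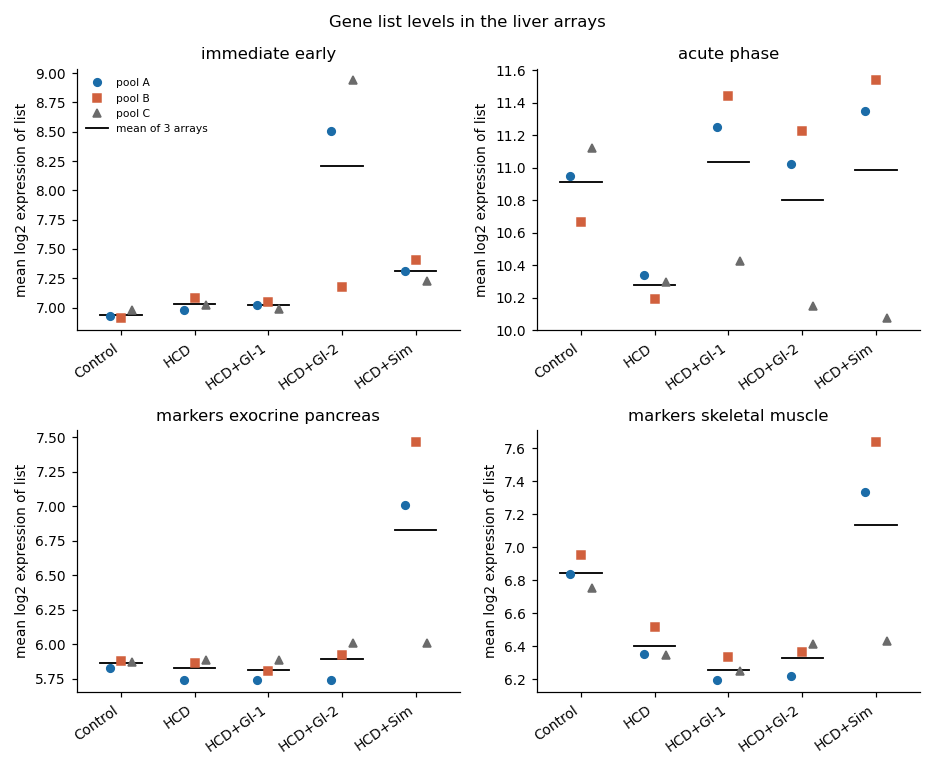
Mean log2 expression (vertical axes) of 12 immediate early genes, 17 acute phase genes, 15 exocrine pancreas markers and 14 skeletal muscle markers in the 15 liver arrays by diet (horizontal axes), with 1 point per array and a line at the mean of 3 arrays. Immediate early genes are high in pools A and C of HCD+Gl-2, acute phase genes are low in the 3 HCD arrays and in pool C of the treated groups, and pancreas markers are high in pools A and B of HCD+Sim.

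Mt1 and Mt2 followed each other across arrays. Over the 10 liver arrays of pools A and B their Pearson coefficient was 0.99, and 0.94 after the group means were removed. Over the 10 brain arrays it was 0.92, or 0.86 after removal, and over the 10 kidney arrays it was 0.73, or 0.68. The points share RNA and array for the pair of genes, so these are descriptions. In liver the genes were chosen on differences between these diet groups, so the 0.99 follows in part from the choice. The liver coefficients of other genes with the mean of Mt1 and Mt2 rest on the same values. No other member had a liver coefficient with the mean of Mt1 and Mt2 above 0.64, that of Slc39a4, and Slc30a10 had -0.31.

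Among 11031 genes with a liver mean above the median of all genes, the 10 with the highest coefficient with the mean of Mt1 and Mt2 over the 10 liver arrays were Ctsz, Rnaseh2a, Gm13238, Trak2, Cabin1, Itsn1, Sh3bp2, Lrp1, Tmem86a and Commd9, at 0.95 down to 0.88. Ctsz encodes the lysosomal protease cathepsin Z and Lrp1 an endocytic receptor for lipoprotein remnants. In kidney the 10 were Rhod, Nckap5l, Fam222a, Nxt1, Galr3, Grap, Elf2, Prkag3, Apip and Cyb561d1, at 0.91 down to 0.87. The liver and kidney lists had no gene in common, which is likely for any 2 lists of 10 genes taken from 11031 and is no result. As the highest of 11031 coefficients over 10 arrays, these values describe likeness and were not tested.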

How the data were processed

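The authors hybridised pooled RNA to the arrays, corrected the signal for background with RMA, quantile normalised it, reduced a batch effect with ComBat and kept 1 probe set per gene, that with the highest interquartile range. The deposited values are log2 expression values. The batches given to ComBat are not named in the sources used here, so their relation to tissue, diet or pool is unknown. Of the 22080 genes, 13 have names turned into dates and were tested but not named. Group, tissue and pool letter came from the labels.

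The 45 arrays were fitted in limma 3.58.1 (R 4.3.3) with a mean for each of the 15 groups (residual df 30, prior df 7.34), with Benjamini-Hochberg adjustment within each comparison. It was tested on simulated data. An exact two-sided permutation test of 3 arrays against 3 cannot give a p under 0.1, and the number of arrays limits the precision. The median within-group SD over genes was 0.138 (liver), 0.0986 (kidney) and 0.111 (brain). Named are all members, list genes by count with values for those called or moving with a result, and the 10 genes most like Mt1 and Mt2 per tissue. The members and all lists were chosen with earlier results of these data known. Pool letters were checked as pairs by the correlation of deviations from group means. All 3 letters passed 0.1 only in liver HCD+Gl-2 against HCD+Gl-1 (0.14, 0.27 and 0.19) and against HCD+Sim (0.20, 0.11 and 0.18), and the labels do not tie the letters to shared animals across diets. Motifs were searched and figures drawn with Python 3.11.15 and matplotlib 3.10.9. Alternatives were fits on fewer arrays, pools A and B only, the letter as a replicate block, a filter on dim genes, renewed quantile normalisation, trend and robust moderation, no fold threshold, and each array left out.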

Additional observations from a re-analysis of the deposited data

Results flagged for a closer look

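In 5 cases all 3 treated arrays lay above all 3 HCD arrays in one tissue and below them in another. The share of all genes with such a pattern is not given here, so the count is a description and no result about the members. Mt1 differed from HCD by 0.83 in liver and -0.04 in kidney under HCD+Gl-1, and by 1.21 in liver and -0.09 in kidney under HCD+Sim. Mt2 differed by 1.19 in liver and -0.12 in kidney under HCD+Gl-1, and by 1.72 in liver and -0.22 in kidney under HCD+Sim. Slc30a10 under HCD+Gl-2 differed from HCD by -0.36 in liver and 0.21 in brain. The differences between tissues were not tested, the liver values of Mt1 and Mt2 chose these genes, and none of the kidney and brain values was called.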

How the results depend on the processing

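Over the alternatives run, 342 counts of called members stayed within 1.5 times of the reported count and 24 did not. Of the fold changes of called members, 360 stayed called, 18 did not and none changed sign. The counts include those that were 0 and stayed 0, as in kidney and brain. The fold changes include the liver comparisons with HCD that chose Mt1 and Mt2, and large differences between tissues. These totals are therefore a tally and no measure of how firm a result is. Fitting only the arrays of the tissue compared gave 1 called member in liver HCD against Control (2 with all arrays) and 0 in HCD+Gl-2 against HCD+Gl-1 (1 with all arrays). Fitting only the 6 arrays of the groups compared gave 0 for HCD against Control, 1 for HCD+Gl-1, 1 for HCD+Gl-2 and 0 for HCD+Sim against HCD (2 each with all arrays), and 0 for HCD+Gl-2 against HCD+Gl-1, with unchanged fold changes and fewer arrays for the spread. In HCD+Gl-2 against HCD+Gl-1 the count was also 0 with pools A and B only and 0 with array B as the only HCD+Gl-2 array, and it was 3 with the adjusted p alone. The adjusted p alone gave 1 in HCD+Gl-1 against HCD+Sim (0 with the fold threshold) and 6 between liver and kidney (3). Leaving out 1 array at a time gave 1 to 2 members in HCD against Control and in HCD+Gl-1 against HCD, with the 1 without HCD pool B, and 1 to 2 in HCD+Gl-2 against HCD+Gl-1, with the 2 without HCD+Gl-2 pool B. Of the 7 members other than Mt1 and Mt2, Slc30a10 was called between HCD+Gl-2 and Control in liver (count 1), and the count was 0 with pools A and B only, 0 with array C as the only Control array, 0 with array B as the only HCD+Gl-2 array, 2 with the adjusted p alone and 0 to 1 with 1 array left out, the 0 without HCD+Gl-2 pool C or Control pool B. For HCD+Gl-1 and HCD+Sim against Control it was 0, but 1 for each with the adjusted p alone and 1 for HCD+Sim with array C as its only array. In kidney and brain the count stayed 0 under every alternative run. The pool letter as a replicate block, over all arrays or within each tissue, changed no call, and liver HCD+Gl-2 against HCD+Gl-1 had 1 called member with the replicate block. The block within tissues, the fits with a lone liver array and the alternatives for the treatments against Control were added after seeing the data. Probe signal sets the depth, and Mt4 was the member too dim for the filter.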
